A study of Mus musculus with 69 samples.

Results

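The regions described here are stretches of chromatin that carried a peak of histone H3 lysine 27 acetylation (H3K27ac) in both wild-type lists of haematopoietic stem cells (HSCs) and in neither list of Kmt2c knockout HSCs. They were chosen by position in the authors' deposited peak lists: a merged autosomal peak of wild-type HSCs after PBS had to overlap a peak of wild-type HSCs after 5-fluorouracil by at least 1 bp, and no peak of knockout HSCs after PBS or after 5-fluorouracil. The rule found 6101 regions among the 58571 merged autosomal regions of the wild-type PBS list, or 10.4%. Of the 43574 regions that both wild-type lists held, they made up 14.0%.

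The series profiled 2 histone marks by ChIPmentation, in which sorted and fixed cells are immunoprecipitated and the bound chromatin is tagged by the Tn5 transposase. The cells were HSCs and haematopoietic progenitor cells (HPCs) of mice. Its 69 samples comprised 63 libraries in 18 groups with a peak list and 6 input libraries, which were not used here. The knockout mice were Kmt2c f/f; Vav-Cre, the heterozygous mice Kmt2c f/+; Vav-Cre, and the controls are labelled wild type without a statement on Vav-Cre. Vav-Cre drives the Cre recombinase in blood-forming cells in general and is not specific to stem cells, and the lists do not measure the deletion itself.

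The 4 HSC H3K27ac lists came from mice aged 16 weeks that received PBS or 5-fluorouracil at 150 mg/kg, 3 times at intervals of 3 weeks, with 3 libraries in each group. The 4 HPC H3K27ac lists came from mice aged 8 to 10 weeks that received PBS or interleukin-1 (IL-1) at 0.5 microgram per day for 3 days, with 4 libraries in each group. H3K4me1 was listed for untreated wild-type, heterozygous and knockout HSCs and HPCs at 8 weeks (3 libraries in each group) and for wild-type and knockout HSCs at 16 weeks after PBS or 5-fluorouracil (3 to 6 libraries in each group). Each group had 1 list for all of its libraries, so no replicate error can be given, no test between conditions was possible, and what is compared is 1 list with another.

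Kmt2c encodes MLL3, a lysine methyltransferase that places H3K4me1, the mark of enhancers, together with its relative MLL4. The same complexes recruit the acetyltransferases p300 and CBP, which deposit H3K27ac at active enhancers and promoters. 5-fluorouracil kills dividing blood cells and drives resting HSCs into division, and IL-1 drives progenitors toward myeloid cells.

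The wild-type-only regions that lay at gene starts are shown first, since their sequence could be read from RefSeq promoter windows (build GRCm38.p6, 250 bases before to 50 after a start site, written along the gene). A start site lay inside a wild-type-only region, with at least 50% of the window covered, at 40 windows of 39 protein-coding genes. The 4 windows below were picked after their values were seen: Hpgds, Mgst2 and Foxd2 because the wild-type and not the knockout HPC lists held the region as well, and Gfi1 as a blood regulator whose region all 4 HPC lists held. Capitals mark letters of 5 motifs searched on both strands, which do not overlap each other in these windows. The motif of the factor family named for GATA was searched as AGATAA. That of RUNX proteins was searched as TGTGGT. For the ETS family the letters were AGGAAG. The C/EBP letters were TTGCNNAA, and those of AP-1 were TGANTCA.
Hpgds, minus strand of chr6:65144681-65144980: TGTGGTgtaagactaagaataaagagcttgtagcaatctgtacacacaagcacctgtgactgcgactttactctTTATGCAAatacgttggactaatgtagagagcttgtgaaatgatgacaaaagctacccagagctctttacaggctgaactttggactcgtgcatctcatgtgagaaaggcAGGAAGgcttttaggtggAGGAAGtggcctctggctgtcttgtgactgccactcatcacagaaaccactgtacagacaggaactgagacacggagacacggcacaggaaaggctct
Mgst2, plus strand of chr3:51660929-51661228: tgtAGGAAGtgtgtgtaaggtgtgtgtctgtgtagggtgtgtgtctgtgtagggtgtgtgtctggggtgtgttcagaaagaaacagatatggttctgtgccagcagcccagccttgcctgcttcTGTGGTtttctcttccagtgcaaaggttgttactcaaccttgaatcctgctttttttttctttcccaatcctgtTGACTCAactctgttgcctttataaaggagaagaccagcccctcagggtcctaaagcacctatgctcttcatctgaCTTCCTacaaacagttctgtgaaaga
Foxd2, minus strand of chr4:114908849-114909148: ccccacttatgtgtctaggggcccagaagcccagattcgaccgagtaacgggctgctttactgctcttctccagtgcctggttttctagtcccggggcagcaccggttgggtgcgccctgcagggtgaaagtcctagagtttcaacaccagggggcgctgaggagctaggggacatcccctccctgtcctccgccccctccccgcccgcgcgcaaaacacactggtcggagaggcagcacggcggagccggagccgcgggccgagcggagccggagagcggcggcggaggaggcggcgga
Gfi1, minus strand of chr5:107724294-107724593: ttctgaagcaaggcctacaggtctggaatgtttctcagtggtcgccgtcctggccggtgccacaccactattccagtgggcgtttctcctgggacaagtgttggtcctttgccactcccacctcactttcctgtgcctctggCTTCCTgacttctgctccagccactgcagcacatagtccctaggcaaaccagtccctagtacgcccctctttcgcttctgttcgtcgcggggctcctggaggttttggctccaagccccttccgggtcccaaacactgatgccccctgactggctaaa

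Hpgds encodes haematopoietic prostaglandin D synthase, and Mgst2 a microsomal glutathione transferase that can make leukotriene C4. Their windows held ETS and RUNX letters with few CpG dinucleotides, 5 at Hpgds and 0 at Mgst2. Foxd2, a forkhead factor, had 26 CpG dinucleotides and none of the 5 motifs, and Gfi1, a transcriptional repressor needed in HSCs and neutrophils, had 1 ETS match and 10 CpG dinucleotides. Over the 40 windows, ETS letters were present in 19 (47.5%, Wilson 95% interval 32.9 to 62.5), against 33.8% of all 20055 protein-coding windows and 32.8% of the 6322 windows at retained regions, defined below. RUNX letters were present in 7 (17.5%) against 14.7% of all windows, C/EBP letters in 4 (10.0%) against 10.3%, AP-1 letters in 3 (7.5%) against 7.06%, and GATA letters in 2 (5.0%) against 9.57%. The SP/KLF letters GGGCGG, not capitalised above, were present in 52.5% against 47.0%. The median ratio of observed to expected CpG was 0.50 at the wild-type-only windows, 0.81 at retained windows and 0.585 over all windows. A match is a string of letters, not a bound site, and the sequence of regions away from gene starts was not used here.

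For comparison, retained regions are those of the 43574 that both knockout lists held as well. There were 29327 of them, or 67.3%. A further 2810 regions were in the knockout PBS list only and 5336 in the knockout 5-fluorouracil list only. Knockout-only regions are the counterpart with the genotypes exchanged: 1619 of the 50499 merged knockout PBS regions, or 3.21%, were in the knockout 5-fluorouracil list and in no wild-type list. The wild-type-only regions thus outnumbered their counterpart, and this count depends on how much each list called. The wild-type lists covered 41.8 Mb after PBS and 44.9 Mb after 5-fluorouracil, and the knockout lists 33.1 Mb and 36.1 Mb. At peaks over retained regions the median width was 902 bp and 880 bp in the wild-type lists and 603 bp and 555 bp in the knockout lists. With all 4 lists held to the same number of peaks the counts were 4349 wild-type-only and 1677 knockout-only regions. With all 4 held to the same covered bases, which kept 29813 of the wild-type PBS peaks, they were 557 and 4824, so the order of the genotypes reversed. What part width and the number of called peaks have in the count was not tested.

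The wild-type-only regions were narrow and weak. Their peak values are given as a description, since the rule used these lists. Together they covered 1.84 Mb, with a median width of 252 bp and quartiles of 178 and 373 bp. The median −log10 p given by the authors' peak caller was 3.88, with quartiles of 3.41 and 4.75 and a highest value of 12.7. Retained regions had a median of 7.99 and reached 174, and knockout-only regions, in their own list, had a median of 3.65. Median fold enrichment over background, the authors' value, was 3.04 for wild-type-only and 4.62 for retained regions. Knockout-only regions had 3.04 as well, with a median width of 202 bp. Regions in the knockout PBS list only had 3.24 and 334 bp, and those in the knockout 5-fluorouracil list only 3.27 and 338 bp. Narrow, weak peaks were thus not particular to wild-type-only regions. When wild-type PBS regions were divided at the quartiles of their −log10 p, wild-type-only regions made up 40.1% of the weakest class of the regions in both wild-type lists. They made up 30.9% of the class above, 10.8% of the class above that and 0.122% of the strongest, where they numbered 18 of 14713.

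Most of them lay beside chromatin that the knockout still marked, which was not particular to these regions. The distance to the nearest knockout peak had a median of 404 bp and quartiles of 150 and 1731 bp. A knockout peak lay under 150 bp away from 1514 regions (24.8%), 150 to 500 bp away from 1826 (29.9%), 500 bp to 2 kb away from 1328 (21.8%), 2 to 10 kb away from 842 (13.8%) and at least 10 kb away from 591 (9.69%). At the edge of the rule, 408 regions were inside with a knockout peak under 50 bp away (median −log10 p 3.56, median width 223 bp), and 593 were outside because under 50 bp of them was covered (3.53 and 230 bp). Median −log10 p did not follow the distance and was 3.73, 4.07, 3.53, 3.88 and 4.07 in the 5 classes from near to far. Knockout-only regions lay near peaks of the other genotype as well. A wild-type peak lay under 150 bp away from 33.9% of them and 150 to 500 bp away from 29.5%. The share under 150 bp was thus higher than for wild-type-only regions. The share at least 10 kb away was higher too, at 12.4%.

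**Figure D1:**
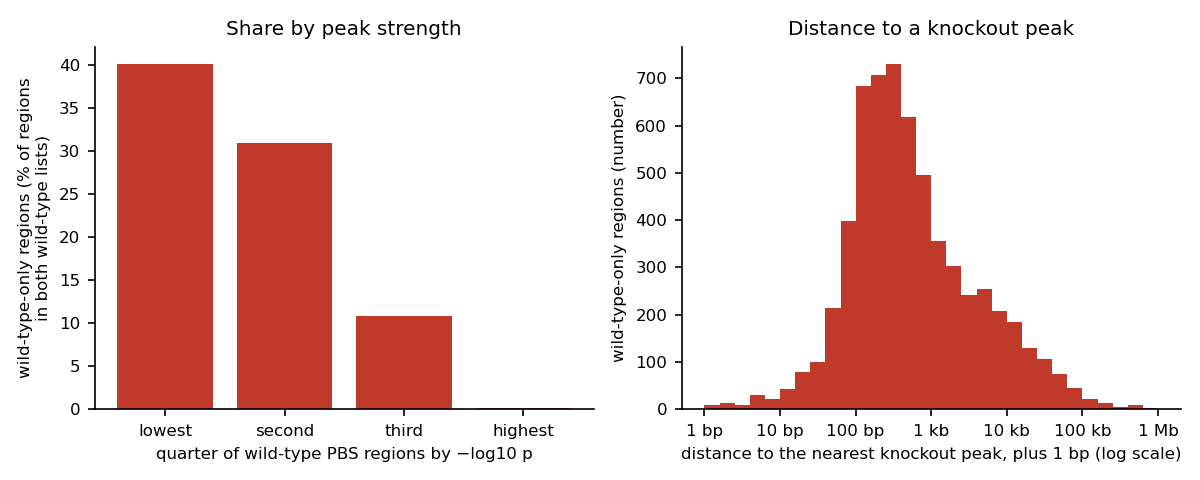
Left, wild-type-only regions as a percentage of the regions in both wild-type lists, in 4 classes cut at the quartiles of wild-type PBS −log10 p: the share is 40.1% in the lowest and 0.122% in the highest class. Right, number of wild-type-only regions by distance to the nearest knockout H3K27ac peak on a log axis, with a median of 404 bp.

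The strongest of them show what the list holds at its top. The highest −log10 p, 12.7 with 5.85-fold enrichment over an 891 bp stretch, belonged to chr14:54351161-54352051, 8789 bp from Oxa1l, a mitochondrial membrane insertase. Its nearest knockout peak was 8555 bp away, and none of the 10 H3K4me1 lists or the 4 HPC H3K27ac lists held it. The next, chr16:45844035-45845249 at the start of Phldb2, a cortical cytoskeleton protein, had 12.1, was in 5 of the 7 HSC H3K4me1 lists and in no HPC H3K27ac list. A region at the start of Klf3, chr5:64803354-64804139, had 10.3 and was in all 4 HPC H3K27ac lists, with a knockout HSC peak 95 bp away. Klf3 is a Krüppel-like repressor of blood cells.

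Among the other 9 of the 12 strongest, 2 were in both wild-type and neither knockout HPC list. They lay in Nrros, a TGF-beta milieu regulator of myeloid cells (chr16:32147624-32148063, −log10 p 10.3), and at the start of Hpgds (chr6:65144401-65145526, 8.58), 15961 and 6751 bp from the nearest knockout HSC peak. The regions nearest to Ly86 and in Hdac7, a class IIa histone deacetylase, were in all 4 HPC lists, and that nearest to Ndufb6 in 3 of them. A region in Mtfr2 was in 2, the knockout PBS and the wild-type IL-1 list. The regions nearest to Nepro, in Aig1 and in Pik3c3 were in none. Of the 12, then, 5 were in no HPC H3K27ac list at all.

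HPC H3K27ac was the measure closest to the selection that the rule did not use, since it came from other cells and other mice. Wild-type-only regions were found more often in the wild-type than in the knockout HPC list under both treatments. After PBS, 2453 of the 6101 (40.2%, interval 39.0 to 41.4) were in the wild-type list and 1802 (29.5%, 28.4 to 30.7) in the knockout list. After IL-1 the numbers were 2156 (35.3%) and 1494 (24.5%). Over all wild-type PBS regions the shares were 59.1% and 55.0% after PBS and 56.0% and 50.4% after IL-1. These intervals are Wilson 95% intervals over regions and cover counting error only, and neighbouring regions are not independent.

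After PBS, 872 wild-type-only regions (14.3%) were in the wild-type and not the knockout HPC list, where 8.02% of all wild-type PBS regions were, and 221 (3.62%) were the reverse, where 3.98% of all were. Of the regions found in 1 of these lists, the wild-type list therefore held 79.8% (77.3 to 82.1). The same share was 73.9% for regions in the knockout 5-fluorouracil list only, 67.4% for regions in the knockout PBS list only, 61.8% (60.0 to 63.7) for retained regions and 43.0% (37.2 to 49.0) for knockout-only regions. Among regions of both wild-type lists, taken over all peak strengths, the share was thus lower the more knockout HSC lists held the region.

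After IL-1, 811 regions (13.3%, background 8.55%) were in the wild-type HPC list only and 149 (2.44%, background 3.04%) in the knockout list only, so the wild-type list held 84.5% (82.1 to 86.6). The share was 81.5%, 76.4% and 67.9% (66.1 to 69.6) in the same order of sets down to retained regions, and 65.2% (59.0 to 70.9) for knockout-only regions. In both comparisons the level of the share moves with the size of the 2 lists. With the HPC lists held to equal numbers of peaks it was 73.7% for wild-type-only, 53.1% for retained and 35.3% for knockout-only regions after PBS, and 83.3%, 65.4% and 63.5% after IL-1. At equal covered bases it was 66.9%, 43.9% and 28.1% after PBS. After IL-1 it fell below 50% for all of them, at 42.4%, 17.1% and 27.4%, with 21218 of the wild-type peaks kept, so there the knockout list held more of the wild-type-only regions. Wild-type-only regions kept the highest share of the 3 sets in each of these settings.

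The difference between wild-type-only and retained regions was also present within classes of peak strength. Within the weakest class of wild-type PBS −log10 p the wild-type HPC PBS list held 78.0% of the wild-type-only regions found in 1 list and 56.7% of the retained ones. In the next class the shares were 79.0% and 58.0%, and in the one above 82.2% and 62.6%. The 18 wild-type-only regions of the strongest class gave 3 against 1. From the weakest class up, regions in the knockout PBS list only gave 75.3%, 56.5% and 72.6%. Regions in the knockout 5-fluorouracil list only gave 71.5%, 72.9% and 75.5%. In the weakest class, 75.3% lay inside the interval of the wild-type-only regions (72.4 to 82.8). In the next, 56.5% lay below the retained regions, so the order by number of knockout lists was not kept in every class. By distance from the nearest knockout HSC peak, the share for wild-type-only regions was 74.6% under 150 bp and 80.9% from 150 to 500 bp. It was 87.9% from 500 bp to 2 kb, 74.0% from 2 to 10 kb and 77.3% beyond.

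Across all 4 HPC lists, 3172 wild-type-only regions (52.0%) were in none, against 33.9% of all wild-type PBS regions, 12.5% of retained regions and 858 of the 1619 knockout-only regions. In all 4 were 1138 (18.7%), against 44.4%, 69.8% and 18.3% in the same order. The pattern of both wild-type and neither knockout HPC list held for 303 (4.97%, 4.45 to 5.54), against 2.48% of all wild-type PBS regions, 1.63% of retained and 1.91% of knockout-only regions, and the reverse pattern for 27 (0.443%). Regions of the former pattern near genes named below included chr13:109439971-109441346 near Pde4d (−log10 p 6.91), chr14:25562048-25562722 near Zmiz1 (6.17), chr12:26407361-26408565 near Rsad2 (6.19) and chr17:29139568-29140091 near Cdkn1a (3.89).

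**Figure D2:**
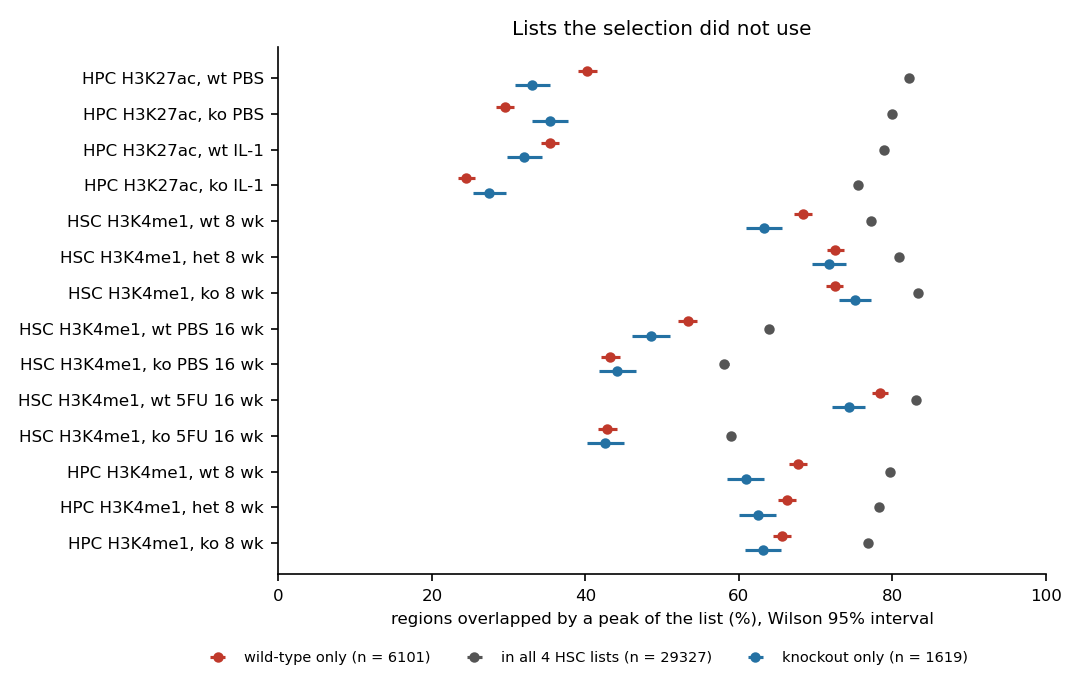
Percentage of wild-type-only (red, 6101), retained (grey, 29327) and knockout-only regions (blue, 1619) overlapped by a peak of each list that the rule did not use, with Wilson 95% intervals. Wild-type-only regions were in 40.2% of cases in the wild-type and 29.5% in the knockout HPC H3K27ac list after PBS.

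H3K4me1, the mark that MLL3 places, was present at most wild-type-only regions in every genotype at 8 weeks, as it was at most regions of the whole list. In untreated HSCs of 8 weeks, 4167 (68.3%, 67.1 to 69.5) were in the wild-type H3K4me1 list. Heterozygous HSCs had a peak at 4428 (72.6%) and knockout HSCs at 4423 (72.5%). All 3 lists held 3650 (59.8%). The wild-type list alone, without either mutant list, held 117 (1.92%). Over all 58571 wild-type PBS regions the 3 shares were 69.9%, 74.1% and 76.2%, and all 3 lists held 62.8%, so the presence of the mark at 8 weeks was near that of the whole list.

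Between wild type and knockout at 8 weeks, 328 regions (5.38%, background 3.96%) were in the wild-type list only and 584 (9.57%, background 10.3%) in the knockout list only, so the wild-type list held 36.0% (32.9 to 39.1) of those in 1 list. The share was 27.8% for all wild-type PBS regions, 24.6% for retained and 17.6% for knockout-only regions. With the heterozygote in place of the knockout it was 35.1% for wild-type-only regions and 34.7% for all wild-type PBS regions. It was 34.8% for retained and 26.3% for knockout-only regions. These lists covered 85.8 Mb in wild type, 103 Mb in the heterozygote and 113 Mb in the knockout. At equal covered bases the direction reversed, with 72.8% in wild type for wild-type-only regions, 65.3% for retained and 54.2% for knockout-only regions.

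At 16 weeks after PBS the wild-type H3K4me1 list held 3252 of the regions (53.3%) and the knockout list 2637 (43.2%). In the wild-type list only were 953 (15.6%, background 12.5%), and in the knockout list only 338 (5.54%, background 5.80%). The wild-type list held 73.8% (71.4 to 76.1) of those in 1 list, against 68.3% for all wild-type PBS regions, 67.3% for retained and 61.3% for knockout-only regions. At equal covered bases the 3 shares were 52.6%, 42.0% and 36.6%. The sign of the difference between genotypes was therefore opposite at 8 weeks and at 16 weeks in the lists as deposited. This held for all wild-type PBS regions as for the wild-type-only ones. The lists also differed in strength. At 8 weeks a −log10 q of at least 5 was reached by 57.2% of wild-type and 62.6% of knockout peaks. At 16 weeks after PBS it was reached by 1.012% and 1.035%. Age, the PBS injections and the sizes and strength of the lists cannot be told apart.

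After 5-fluorouracil, 4782 regions (78.4%) were in the wild-type and 2614 (42.8%) in the knockout H3K4me1 list. The wild-type list alone held 2188 (35.9%, background 28.6%) and the knockout list alone 20 (0.328%, background 0.340%), which gave 99.1% in wild type, against 98.8% for all wild-type PBS regions, 98.6% for retained and 98.0% for knockout-only regions. That wild-type list was made from 6 libraries under titles with different prefixes, covered 116 Mb against 44.2 Mb in the knockout, and reached a −log10 q of at least 5 at 28.2% of its peaks against 0.635%. At equal covered bases the share was 37.7% for wild-type-only and 16.1% for retained regions, so this pair of lists gives no direction that holds under both.

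In untreated HPCs of 8 weeks the H3K4me1 lists held the regions at close levels, 67.7% in wild type, 66.3% in the heterozygote and 65.6% in the knockout. Over all wild-type PBS regions the shares were 71.0%, 69.7% and 68.6%, with a like spacing. Of wild-type-only regions in 1 of the wild-type and knockout HPC H3K4me1 lists, wild type held 57.3%. That share was 58.8% for all wild-type PBS regions, 62.2% for retained and 42.6% for knockout-only regions. Over all 7 HSC H3K4me1 lists, 1835 regions (30.1%) were in every list and 829 (13.6%) in none, against 46.5% and 9.61% of retained regions and 36.8% and 13.8% of all wild-type PBS regions. In none of the 14 lists outside the selection were 432 (7.08%), against 5.75% of all wild-type PBS regions, 0.75% of retained and 7.97% of knockout-only regions.

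**Figure D3:**
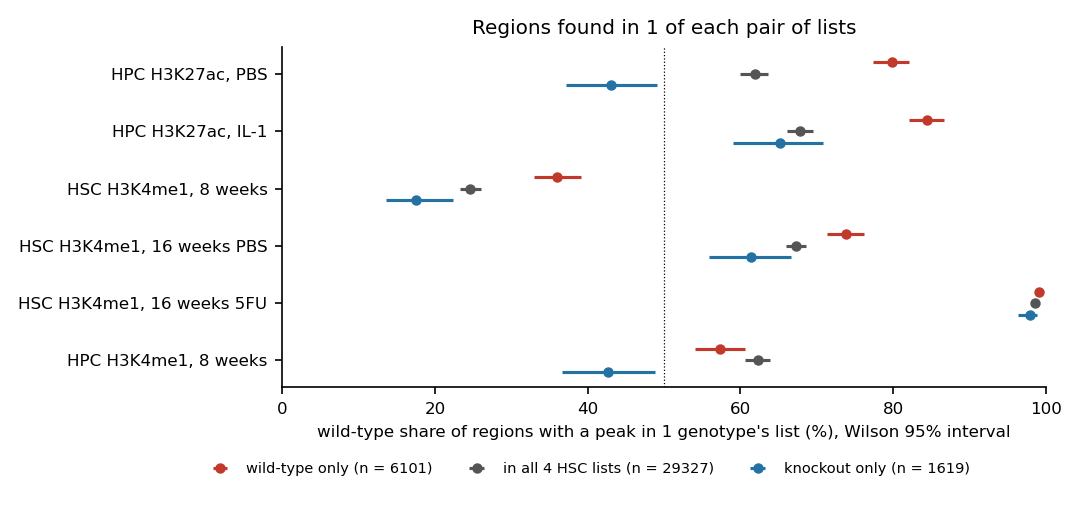
For each pair of wild-type and knockout lists, the percentage held by the wild-type list among regions with a peak in 1 list of the pair, with Wilson 95% intervals, for wild-type-only (red), retained (grey) and knockout-only regions (blue). Wild-type-only regions have the highest share of the 3 sets for HPC H3K27ac (79.8% after PBS, 84.5% after IL-1) and for the HSC H3K4me1 pairs. At 8 weeks their HSC H3K4me1 share lies below 50% (dotted line), at 36.0%. For HPC H3K4me1 it is 57.3%, below retained regions at 62.2%.

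The regions lay mostly away from gene starts. Inside a protein-coding gene were 3757 (61.6%), outside but within 50 kb of one 1629 (26.7%), and farther away 715 (11.7%), against 71.8%, 21.8% and 6.42% of retained regions. Start sites were taken from a RefSeq table that held 16457 of the 20665 autosomal protein-coding genes and none of chromosome 18, which left 5915 regions. A start site lay inside 84 of these (1.42%), against 21.9% of retained and 1.41% of knockout-only regions. Within 1 kb of a start site were 614 (10.4%), against 34.5% and 14.0%. More than 10 kb from any were 3710 (62.7%), against 45.1% and 58.5%. This position was not particular to them. Of regions in the knockout 5-fluorouracil list only, 60.9% lay inside a gene, 12.2% within 1 kb of a start site and 61.3% beyond 10 kb. For regions in the knockout PBS list only the shares were 65.5%, 18.2% and 55.2%. Retained regions were also wider, with a median of 902 bp against 252 bp, and the part of width was not tested.

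They were spread over all 19 autosomes, at 9.48% of the wild-type PBS regions of chromosome 19 to 11.8% of those of chromosome 9. In the 10 Mb on either side of Kmt2c on chromosome 5, 44 of 478 regions (9.21%) were wild-type-only, and none of the 7 regions within 50 kb of Kmt2c was. Of 202 windows of 10 Mb with at least 100 regions, the extremes were 4 of 168 regions (2.38%) at 60 to 70 Mb of chromosome 13 and 30 of 176 (17.0%) at 110 to 120 Mb of chromosome 2. Between neighbouring knockout peaks, 5258 stretches held at least 1 of them. A single one was held by 4582 stretches and at least 3 by 118. The fullest, 16338 bp on chromosome 5 near Chrna9, held 8 regions from chr5:65927287 to chr5:65937225, of which 8 were in the wild-type and 5 in the knockout HPC PBS list and 8 and 7 in the wild-type and knockout H3K4me1 lists of 8 weeks.

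Genes were described by the number of wild-type-only regions within 50 kb of the annotated gene. Of 20665 protein-coding genes, 16456 had at least 1 wild-type PBS region in that window, 6479 of them (39.4%) had a wild-type-only region, and the median share per gene was 0. At least 5 lay near 384 genes and at least 10 near 30, while 8 genes had at least 5 knockout-only regions. A gene with many regions has more chances to hold one, so each count is given with the number of regions.

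The 10 genes with the most, counting neighbours that share them once, were led by Zmiz1 and Gse1 with 17 each, of 105 and 128 regions. Zmiz1 encodes a coactivator of Notch1 and SMAD signalling. Septin9, a cytoskeletal GTPase, had 15 of 65, Pecam1, the adhesion molecule CD31 of endothelium and HSCs, 14 of 44, and Cdh23, a cadherin, 14 of 68. Pde4d, a cAMP phosphodiesterase, had 13 of 58, Arid1b, a subunit of the BAF remodeller, 13 of 107, and Rph3al, a Rab effector, 13 of 38. Tbc1d1, a Rab GTPase-activating protein, had 12 of 33, and Rora, a nuclear receptor, 12 of 66. Knockout-only regions near these genes numbered 0 to 3.

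The HPC lists, outside the selection, can be read at the same genes. Over all 6101 wild-type-only regions, the wild-type list held 40.2% and the knockout list 29.5% after PBS, and 35.3% and 24.5% after IL-1. More in wild type at a gene is thus the direction of the whole set. The wild-type HPC PBS list held more of each gene's wild-type-only regions than the knockout list at all 10: 12 against 6 at Zmiz1, 7 against 6 at Gse1, 9 against 6 at Septin9, 9 against 3 at Pecam1, 5 against 4 at Cdh23 and 6 against 1 at Pde4d. At Arid1b it was 8 against 4, at Rph3al 5 against 3, at Tbc1d1 6 against 2 and at Rora 2 against 1. After IL-1 the wild-type list held more at 9 of the 10, from 9 against 5 at Arid1b to 3 against 2 at Gse1, and both lists held 1 at Rora. The H3K4me1 lists of 8 weeks were mixed. The wild-type list held more at 3 genes, with 12 against 9 at Pde4d, 9 against 8 at Rph3al and 9 against 7 at Tbc1d1. Both held 13 at Zmiz1 and 17 at Gse1. The knockout list held more at the other 5, with 12 against 9 at Rora, and by 1 region each at Septin9, Pecam1, Cdh23 and Arid1b.

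Pecam1 shows how the regions sit. Of its 14, 5 lay inside the gene and the others toward or inside its neighbours Tex2 and Milr1, which share the window. The strongest was chr11:106619862-106620304 (−log10 p 6.91, 869 bp from a knockout peak), which was in every HSC H3K4me1 list, in both wild-type HPC H3K27ac lists and in the knockout list after IL-1. Peaks within 50 kb of Pecam1 covered 30088 and 37412 bp in the wild-type HSC lists (PBS, then 5-fluorouracil) and 14162 and 22707 bp in the knockout lists. HSC coverage, here and at the genes below, is a description only, since the rule used these lists. Over all autosomes they covered 41.8 and 44.9 Mb in wild type and 33.1 and 36.1 Mb in knockout. In HPCs they covered 39536 bp in wild type and 26886 bp in knockout after PBS, and 31024 and 19324 bp after IL-1. No knockout-only region lay there.

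Tgfbr2, the type II receptor of TGF-beta that restrains HSC division, had 12 of 34 regions, 10 of them inside the gene and 2 beyond its end with the higher coordinate. The strongest, chr9:116193795-116193956 (−log10 p 8.58), lay 256 bp from a knockout HSC peak and was in the wild-type PBS list alone among the HPC lists. The next, chr9:116135840-116136247 (7.76), lay 2542 bp from a knockout peak inside the gene and was in all 7 HSC H3K4me1 lists and in no HPC H3K27ac list. Peaks near Tgfbr2 covered 18712 and 23021 bp in the wild-type and 9612 and 11722 bp in the knockout HSC lists, which the rule used. In HPCs they covered 34461 bp in wild type and 22536 bp in knockout after PBS, and 36097 and 19628 bp after IL-1. The number of knockout-only regions near the gene was 1.

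Cdkn1a encodes p21, the CDK inhibitor that keeps HSCs in quiescence and is a target of p53. Of its 29 regions 9 were wild-type-only, 8 retained, and 1 knockout-only region lay near it. The wild-type HPC PBS list held 8 of the 9 and the knockout list 2, while after IL-1 both lists held 3. The H3K4me1 lists of 8 weeks held few of them, 3 in wild type and 4 in knockout. From chr17:29113370-29113771 to chr17:29139568-29140091, in or beside the neighbouring gene Rab44, 5 of them followed each other with the nearest knockout peak 724 to 12738 bp away, and none of these 5 was in an HSC H3K4me1 list. The first 4 lay in 1 stretch without knockout peaks, which ended at chr17:29138667. A knockout HSC peak lay between them and the last. Peaks near Cdkn1a covered 15344 and 15551 bp in the wild-type and 7136 and 7446 bp in the knockout HSC lists, which the rule used. In HPCs after PBS they covered 23208 bp in wild type and 17900 bp in knockout.

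**Figure D4:**
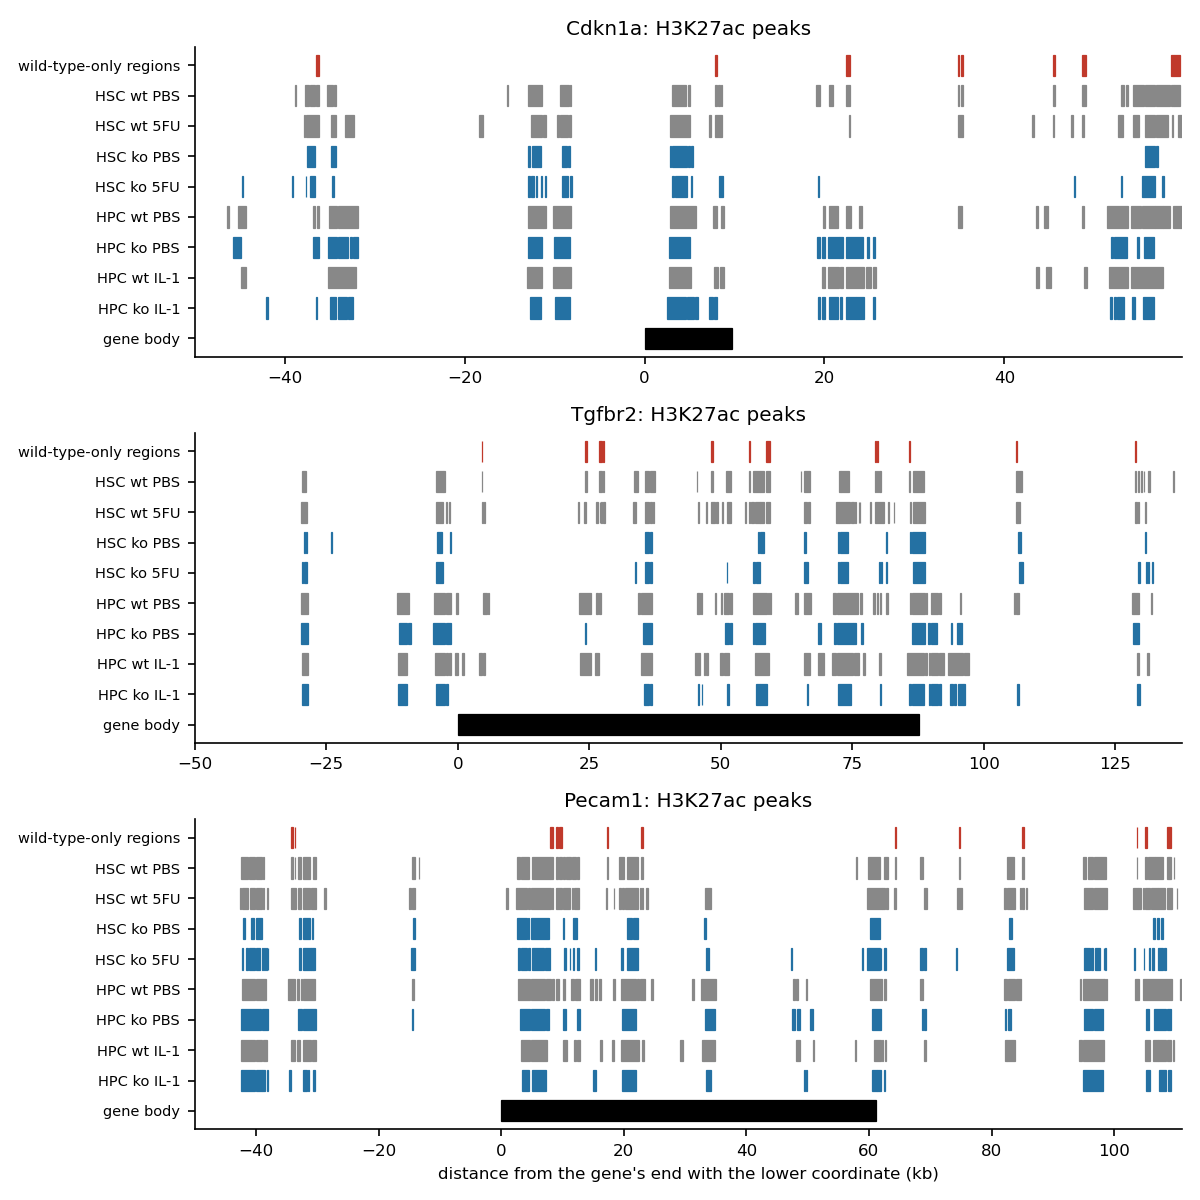
H3K27ac peaks of the 4 HSC and 4 HPC lists within 50 kb of Cdkn1a, Tgfbr2 and Pecam1, by distance from the end of the gene with the lower coordinate in kb (grey, wild type; blue, knockout; black, gene body). The 9, 12 and 14 wild-type-only regions (red) lie between and beside peaks of the knockout HSC lists.

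The reference genes of blood development differed in the same count. Mecom, a transcription factor that HSCs need for self-renewal, had 5 of 64 regions, with 36 retained and 4 knockout-only regions. Peaks near it covered 63766 and 71901 bp in the wild-type and 55689 and 73755 bp in the knockout HSC lists, so the order of the genotypes differed between the treatments. Cebpa, the C/EBP factor of granulocyte and monocyte development, had 3 of 16 regions, at chr7:35145657-35145954, chr7:35147902-35148099 and chr7:35148594-35148909, and none of the 3 was in an HPC H3K27ac list. Spi1, which encodes PU.1, had 2 of 18 and Hlf, an HSC transcription factor, 1 of 16. Il1r1, the IL-1 receptor, had 1 of 12 against 6 knockout-only regions, the reverse order. Kmt2c itself had 0 of 7, and the peaks near it covered 6729 and 6821 bp in the wild-type and 6658 and 7048 bp in the knockout HSC lists. H3K27ac peaks near a gene do not check whether its coding exons were deleted.

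Gene lists were compared by the distinct regions within 50 kb of their genes, beside all genes, for which 10.1% of 53484 regions were wild-type-only and 2.73 knockout-only regions lay in the windows per 100 of these. No test was run on the lists. Within 10 kb and 100 kb of all genes the share was 9.70% and 10.3%. Granulocyte and monocyte genes had 31 of 187 regions (16.6%, 11.9 to 22.6), with 16 of 21 measured genes holding at least 1 and 2 knockout-only regions. Within 10 kb they had 11 of 91 (12.1%, 6.89 to 20.4) and within 100 kb 42 of 312 (13.5%, 10.1 to 17.7). Both of these intervals included the share of all genes in the same window. Ltf, the granule protein lactoferrin, had 4 of 12, and the neighbours Prtn3 and Elane, primary granule proteases, shared the same 4. HSC identity genes had 66 of 708 (9.32%, 7.39 to 11.7), with 22 of 30 genes, and 35 knockout-only regions, or 4.94 per 100. Among them the ETS factor Fli1 had 11 of 48 and 0 knockout-only regions, Prdm16, a self-renewal regulator, 11 of 74, and Vwf, von Willebrand factor, 6 of 33. In HPCs after PBS, wild-type and knockout lists held 5 and 2 at Fli1, 1 and 0 at Prdm16 and 1 and 2 at Vwf. Each held 2 at Ltf and 2 at Prtn3 and Elane.

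Cytokine signalling genes had 60 of 438 (13.7%, 10.8 to 17.2), in 18 of 25 genes. After Tgfbr2 came Smad3, its signal transducer, with 8 of 49, and Smad7, its inhibitor, with 7 of 35, of which 3 were in the wild-type and 0 in the knockout HPC PBS list. Lymphoid genes had 34 of 274 (12.4%, 9.02 to 16.8), in 10 of 22 genes. Notch1, the receptor that starts T cell development, had 8 of 33, 6 of them in the wild-type and 1 in the knockout HPC PBS list. Bcl11a, a B-lineage and HSC factor, had 8 of 50, and Tcf7, a T cell factor, 5 of 15. Megakaryocyte and erythroid genes had 22 of 205 (10.7%), among them the GATA1 cofactor Zfpm1 with 5 of 32, the platelet glycoprotein Gp9 with 4 of 22 and the red cell ankyrin Ank1 with 3 of 12. The other genes of these 3 lists were mixed in HPCs after PBS. Wild-type and knockout lists held 3 and 1 at Smad3, 6 and 4 at Bcl11a and 4 and 1 at Zfpm1. They held 1 and 1 at Tcf7, 1 and 2 at Gp9 and 0 and 1 at Ank1.

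NF-kB and IL-1 response genes had 25 of 277 (9.03%) and interferon response genes 33 of 332 (9.94%). Within 10 kb, interferon response genes had 10 of 165 (6.06%, 3.33 to 10.8). Il1rl1, the IL-33 receptor, had 4 of 9, of which 4 were in the wild-type and 2 in the knockout HPC list after IL-1. Tnip1, an inhibitor of NF-kB, had 4 of 29 and Irak3, a brake on receptor signalling, 3 of 15, with none in an HPC H3K27ac list. The interferon-induced genes Ifit1, Rsad2 and Ifih1 had 4 each, of 13, 21 and 13. After PBS, wild-type and knockout HPC lists held 3 and 1 at Il1rl1, 2 and 1 at Tnip1 and 3 and 2 at Rsad2. Each held 1 at Ifit1 and 0 at Ifih1.

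Cell cycle inhibitors and G1 regulators had 22 of 190 (11.6%), of which Cdkn1a held 9, the D-type cyclin Ccnd3 4 and the INK4 inhibitor Cdkn2d 3. Within 10 kb the list had 6 of 104 (5.77%), below the share of all genes instead of above it. Quiescence and immediate early genes had 22 of 249 (8.84%), with Egr3 at 4 of 18, Egr2 at 3 of 5 and Nr4a1 at 3 of 20, and 5 of 118 (4.24%) within 10 kb. Unlike at Cdkn1a, both genotypes' HPC PBS lists held the same number at Ccnd3 (3), Cdkn2d (3), Egr2 (3), Nr4a1 (2) and Egr3 (0). The lowest shares were those of p53 response genes, 8 of 129 (6.20%), of which Sesn1, a stress-induced metabolic regulator, held 5, Phlda3 1 and Mdm2 1, and of H3K4 methylation and enhancer complex genes, 10 of 158 (6.33%), of which the MLL partner Men1 held 5, the demethylase Kdm1a 2 and Kmt2b 1. Both intervals reached past the 10.1% of all genes, at 11.8 and 11.3, and within 100 kb they ended at 9.77 and 9.92, below the 10.3% of all genes. Within 10 kb the H3K4 list had 2 of 75 (2.67%, 0.734 to 9.21), with an interval below the 9.70% of all genes. Housekeeping genes had 17 of 189 (8.99%), with Ywhaz at 7 of 39, Polr2a at 2 of 14 and Ppia at 2 of 10, and 3 of 62 (4.84%) within 10 kb.

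Lists of other cell types were read beside these. Mature T, NK and B cell markers had 14 of 128 (10.9%), with Cd22 and Klrb1c at 3 each and Cd5 at 2. Silent tissue genes had 9 of 89 (10.1%), with Mbp at 3 and Cryaa at 2. Stroma and endothelium markers had 18 of 92 (19.6%, 12.8 to 28.8), of which 14 were those of Pecam1, 2 of Kdr and 1 of Col1a2. In the wild-type PBS list, a peak lay within 1 kb of a start site at 22 of 22 HSC identity genes with a start site in the table, at 5 of 12 mature lymphocyte markers, at 3 of 9 stroma and endothelium markers and at 0 of 11 silent tissue genes. Lineage genes had such peaks too: 10 of 19 granulocyte and monocyte, 8 of 12 megakaryocyte and erythroid and 10 of 21 lymphoid genes. The share over all genes with a start site was 52.2%. The part of other cells in these regions was not tested, and fewer cells of a type and less signal per cell cannot be told apart in bulk chromatin.

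**Figure D5:**
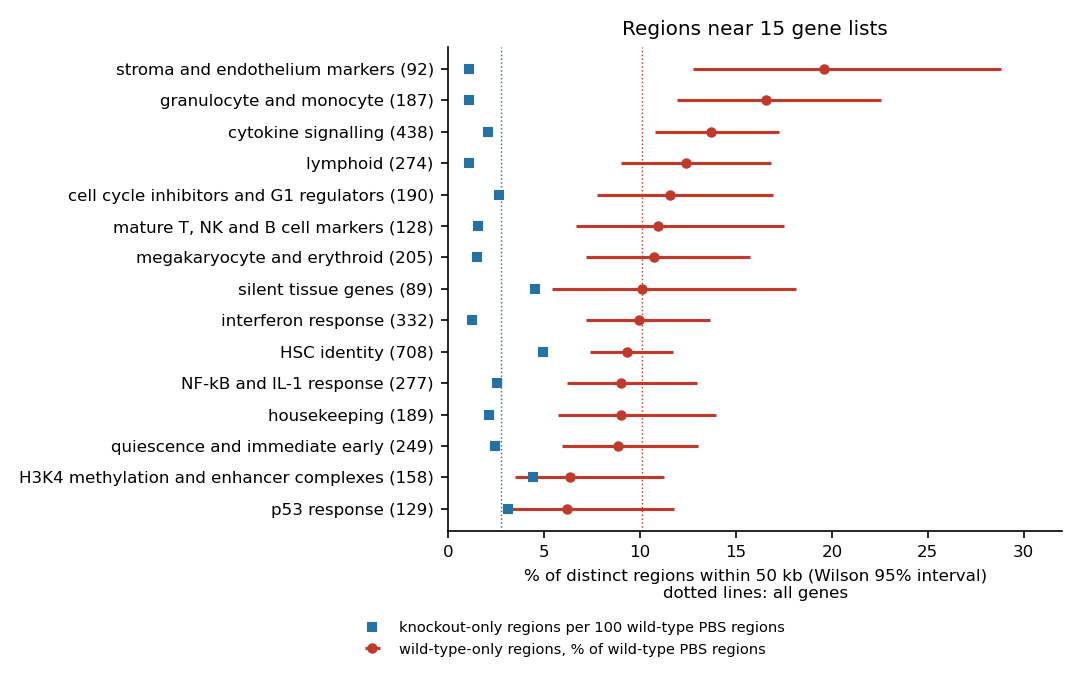
Wild-type-only regions as a percentage of the distinct wild-type PBS regions within 50 kb of each list's genes (red, Wilson 95% interval, number of regions in brackets) and knockout-only regions per 100 of them (blue), with all genes as dotted lines at 10.1 and 2.73. Granulocyte and monocyte genes lie at 16.6% and HSC identity genes at 9.32%.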

How the data were processed

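Peaks of H3K27ac and H3K4me1 ChIPmentation libraries were used as 1 list per group. The submitters' processing notes name the aligner Novoalign, the peak caller MACS2 and build mm10. Their versions and settings, the filter behind each list and the way libraries were joined were not given here. The deposited narrowPeak lists hold, per peak, fold enrichment (a ratio) and the −log10 p and −log10 q of the authors' peak caller. Read depth is unknown, so no value is given per read, and only numbers of regions carry an interval.

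Peaks were merged within each list, which joined none, and kept on the 19 autosomes. An overlap of at least 1 bp counted as shared. Regions, genes and gene lists were chosen with earlier results of these data known. Gene windows were 50 kb on either side of RefSeq genes (GRCm38.p6). By a written rule the text names the 12 strongest regions, the 10 genes with the most regions (ties by summed length, neighbours with the same regions named once), up to 3 genes per list with the most, and 7 reference genes. A gene that this rule names is not reported here. Other regions and the promoters were picked after their values were seen. Intervals are Wilson 95% intervals and cover counting error only, since neighbouring regions are not independent. What was checked on simulated data with known answers is the finding of overlaps, distances and regions by the rule. The labels do not say whether libraries of a group came from separate animals, and 1 list per group allows no test. Sex chromosomes and input libraries were left out. Alternatives were another overlap, a −log10 p of at least 3, lists held to equal numbers or equal covered bases, widened or merged peaks, the strongest 25%, other combinations of lists and other gene windows. Python 3.11.15, numpy 2.4.6, pandas 2.3.3, scipy 1.17.1 and matplotlib 3.10.9 were used.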

Additional observations from a re-analysis of the deposited data

Results flagged for a closer look

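The difference between genotypes in H3K4me1 at wild-type-only regions had opposite signs at the 2 ages. At 8 weeks the knockout list held 4.20 percentage points more of the 6101 regions than the wild-type list. At 16 weeks after PBS the difference, knockout minus wild type, was -10.1 percentage points. The signs were the same over all wild-type PBS regions (6.31 and -6.67) and over retained regions (6.13 and -5.85), so the pattern is one of the lists as a whole. The change between the ages was not tested, since each group has 1 list, and at equal covered bases the wild-type list held more of the regions found in 1 list at both ages (72.8% and 52.6%).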

How the results depend on the processing

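Of 63 alternative values for the main results, 30 stayed close, 30 moved and 3 reversed. The 6101 wild-type-only regions became 557 with lists of equal covered bases, 2761 with knockout peaks widened by 500 bp, 3190 with peaks up to 500 bp apart merged, 18 among the strongest 25%, 16060 without the wild-type 5-fluorouracil list and 11437 without the knockout 5-fluorouracil list. The wild-type share of regions in 1 list was also taken with the HSC lists that chose the regions altered. For HPC H3K27ac after PBS it became 88.0% (equal covered bases) and 75% (strongest 25%, only 3 of 4 regions). After IL-1 it became 93.1% (equal covered bases), 80.0% (strongest 25%, only 4 of 5 regions) and 79.9% (merged peaks). For H3K4me1 at 8 weeks it became 46.9% (equal covered bases), 50% (strongest 25%, only 3 of 6 regions) and 40.0% (equal numbers). At 16 weeks after PBS it became 81.1% (equal covered bases) and 50% (strongest 25%, only 1 of 2 regions). After 5-fluorouracil it became 98.2% (equal covered bases), 100% (strongest 25%, only 4 of 4 regions), 99.5% (merged) and 99.5% (−log10 p of at least 3). When the compared lists were held to equal numbers of peaks it became 73.7% for HPC H3K27ac after PBS, and 44.1%, 68.3% and 93.7% for H3K4me1 at 8 weeks, at 16 weeks after PBS and after 5-fluorouracil. At equal covered bases it became 66.9% for HPC H3K27ac after PBS and 52.6% for H3K4me1 at 16 weeks after PBS, and it reversed to 42.4% for HPC H3K27ac after IL-1, 72.8% for H3K4me1 at 8 weeks and 37.7% after 5-fluorouracil. With at least 50% of a region covered, HPC H3K27ac after IL-1 gave 87.0%. Genes with a wild-type-only region made up 23.7% within 10 kb, 52.2% within 100 kb and 37.3% of all annotated genes. The cause of these changes was not tested. No paired analysis was possible because each group has 1 list for all of its libraries, which also prevents leaving out a library. Unknown depth limits every absence to an absence from a list.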
